A study of Mus musculus with 10 samples.

Results

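The genes that mark and license replication origins were followed in serum-starved mouse fibroblasts with and without the protein Lin37. The group holds 10 genes chosen by name, *Orc1* to *Orc6*, *Cdc6*, *Cdt1*, *Gmnn* and *Dbf4*, out of 45232 gene entries measured, and each was found by its symbol. RNA was sequenced from NIH3T3, an immortalized mouse fibroblast line, in which both comparison groups carry a mutated *Lin37* gene. One single-cell clone has InDels at exon 4 and the other at exon 6, made with a CRISPR/Cas9 nickase, and each clone held an episome, a plasmid kept outside the chromosomes, from which doxycycline induced luciferase (KO) or wild-type Lin37 (rescue). All cells were kept without serum for 60 h before RNA was taken. The exon 4 clone gave 2 biological replicates of KO and 2 of rescue. The exon 6 clone gave 3 libraries of each, of which library 3 is a technical replicate of library 2. Rescue cells are thus a mutant clone that re-expresses Lin37, not unedited NIH3T3, and each clone stands for 1 editing event.

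Before a cell can copy its DNA, each origin must be licensed. The origin recognition complex (ORC), built of the proteins Orc1 to Orc6, binds the origin and recruits Cdc6 and Cdt1, which load the MCM helicase as an inactive ring. Geminin, encoded by *Gmnn*, binds Cdt1 and blocks further loading once S phase has begun, and Dbf4 activates the kinase Cdc7, which fires loaded origins. Quiescent cells lose much of this machinery and rebuild it when they return to the cycle. Lin37 is a subunit of the MuvB core of the DREAM complex, which represses cell-cycle genes in quiescence from promoters with E2F or CHR elements.

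The start-site regions of 5 members are shown because they hold the E2F or CHR letters, or none of them, that such complexes use. RefSeq promoters of build GRCm38.p6, 250 bases before to 50 after the start site, were matched for 9 of the 10 members, *Gmnn* not being among them. They were searched on both strands for the E2F letters TTCCCGC and their variants TTGGCGC, again TTCGCGC and also TTGCCGC. The CHR letters were TTTGAA and the variant TTCGAA, and the third motif was CCAAT. Sequences run 5′ to 3′ on the gene's strand with matches in capitals. A long stretch covers the 130 bases before the first annotated start in RefSeq or GENCODE, and a short one covers 28 bases around a match that lies at or after it.
Cdt1, around 2 E2F matches, chr8:122568030-122568057, plus strand: tccGCGGGAActacctttTTGGCGCcat
Orc1, around 1 E2F match, chr4:108579417-108579444, plus strand: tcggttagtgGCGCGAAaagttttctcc
Orc1, 130 bases with 2 CCAAT matches, chr4:108579293-108579422, plus strand: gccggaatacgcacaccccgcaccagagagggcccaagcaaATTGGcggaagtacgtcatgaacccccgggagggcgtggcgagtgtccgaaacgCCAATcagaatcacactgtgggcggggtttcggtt
Dbf4, around 1 CHR match, chr5:8422703-8422730, minus strand: cgtgacgcgttTTCAAAtctttaaccgc
Orc3, 130 bases with 1 E2F match, chr4:34614945-34615074, minus strand: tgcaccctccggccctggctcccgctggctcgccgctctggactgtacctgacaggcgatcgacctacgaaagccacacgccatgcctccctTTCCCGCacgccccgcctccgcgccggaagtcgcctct
Orc5, 130 bases with no match, chr5:22550430-22550559, minus strand: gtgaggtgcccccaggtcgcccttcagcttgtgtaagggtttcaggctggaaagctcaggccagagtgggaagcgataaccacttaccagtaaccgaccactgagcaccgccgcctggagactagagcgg

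E2F letters were present in the windows of *Cdt1*, *Orc1*, *Orc3* and *Cdc6*. In *Cdt1* they lay at bases 19 to 25 and 34 to 40 after the start, counted from 1 at the RefSeq start site. In *Orc1* they lay at -27 to -21, in *Orc3* at -40 to -34 and in *Cdc6* at -138 to -132. The RefSeq start lies 31 bases after the GENCODE start in *Orc1* and 350 bases after it in *Cdc6*. The E2F matches of *Orc1* and *Cdc6* thus lie inside the genes as GENCODE places them. CHR letters were found in *Dbf4* alone of the 9, across the start site from -3 to 3. CCAAT was found in *Orc1*, *Orc2*, *Orc4* and *Orc6*, and no motif was found in *Orc5*. Of 32817 RefSeq promoters of this length, 9.57% held E2F letters, 19.2% held CHR letters and 37.4% held CCAAT. A match is a run of letters and no measured binding site.

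**Figure D1:**
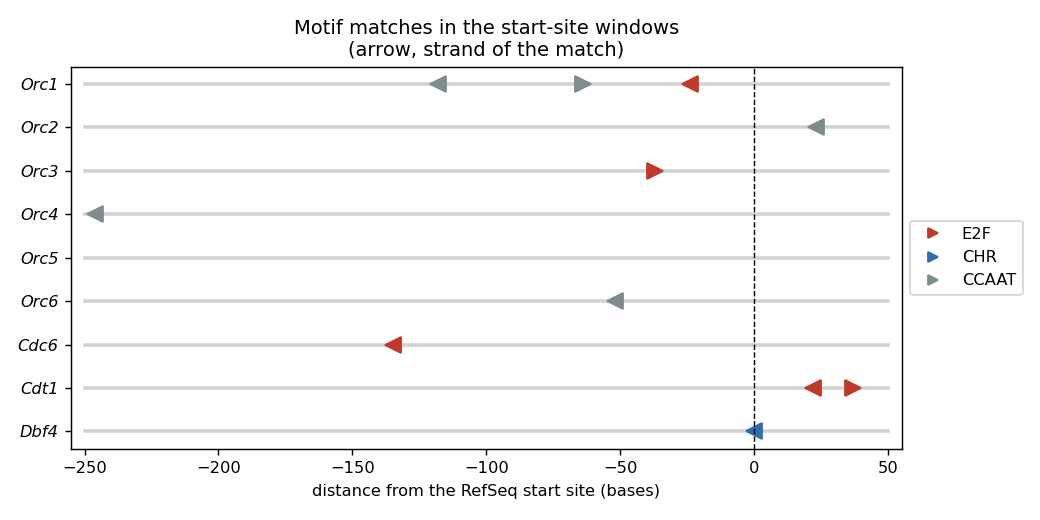
Positions of the motif matches in the promoter windows of the 9 matched members, as distance in bases from the RefSeq start site (dashed line), with arrows pointing along the strand of the match. *Cdt1* has 2 E2F matches just after the start, *Orc1* 1 just before it, *Dbf4* a CHR match on it and *Orc5* none.

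*Lin37* itself stood at 0.315 ± 0.0681 RPKM in KO cells (SD, n = 4 here and below) against 3.58 ± 1.46 RPKM in rescue cells, without overlap of the replicates, although the InDels need not remove the transcript and episomal reads may count. RPKM relate the reads of a gene to its length and to the size of its library, so levels can be compared between genes. The deposited values were rescaled by a median-of-ratios factor per library, from 0.324 to 2.70, which was higher for KO than for the rescue library of the same number in every pair. Read counts were not among the values used, so depth is unknown. All 8 fibroblast markers averaged at least 1 RPKM, and their sum ranged from 470.4 to 764.9 RPKM in KO and from 505.9 to 828.7 RPKM in rescue replicates. None of 5 epithelial, 3 endothelial or 3 leukocyte markers reached that mean over all replicates. The highest of them, the leukocyte marker *Cd68*, averaged 1.06 ± 0.321 RPKM in KO against 0.774 ± 0.126 RPKM in rescue cells, which overlapped, and was higher in KO in 4 of 4 pairs, whereas *Ptprc* averaged 0.0217 RPKM. The summed leukocyte markers ranged from 0.946 to 1.56 RPKM in KO and from 0.812 to 1.45 RPKM in rescue replicates. The summed level of 3 markers of cycling cells, *Mki67*, *Top2a* and *Ccnb1*, ranged from 6.37 to 8.06 RPKM in KO replicates and from 0.620 to 1.99 RPKM in rescue replicates. None of these 3 was at 0 on average in either group, but only *Top2a* averaged at least 1 RPKM over all replicates. It made up most of the sum, at 5.67 ± 1.03 RPKM in KO against 1.09 ± 0.518 RPKM in rescue cells. *Mki67* averaged 0.562 RPKM and *Ccnb1* 0.117 RPKM over all replicates. The sum of the 3 moves with the changes described next, and its part in them was not tested. In bulk RNA, a larger share of cells with a transcript and more transcript per cell cannot be told apart.

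The licensing factor *Cdt1* and its inhibitor *Gmnn* were both higher in KO than in rescue cells. *Cdt1* was 3.53-fold and *Gmnn* 6.33-fold higher on the means. *Orc1* and *Dbf4* were 2.83-fold and 3.01-fold higher on the means, without overlap between the groups, but their adjusted *p* lay just above the threshold. *Orc2*, *Orc3* and *Orc4* did not differ beyond their spread, *Orc5* was on the low side in KO cells, and *Cdc6* lay below the minimum level for testing. Of the 10 genes, 9 reached the minimum average of 0.1 RPKM for testing, and each of the 9 reached it in both KO and rescue cells. With an adjusted *p* under 0.05, 2 of the 9 were higher and 0 were lower, against 1.61% of all 16866 genes tested higher and 0.083% lower. Their median log2 change was 0.38, and that of all genes was -0.03. In the fit with replicate number as a block, 4 of the 9 were called higher, *Orc1* and *Dbf4* in addition, against 1.64% of all genes higher and 0.16% lower.

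**Figure D2:**
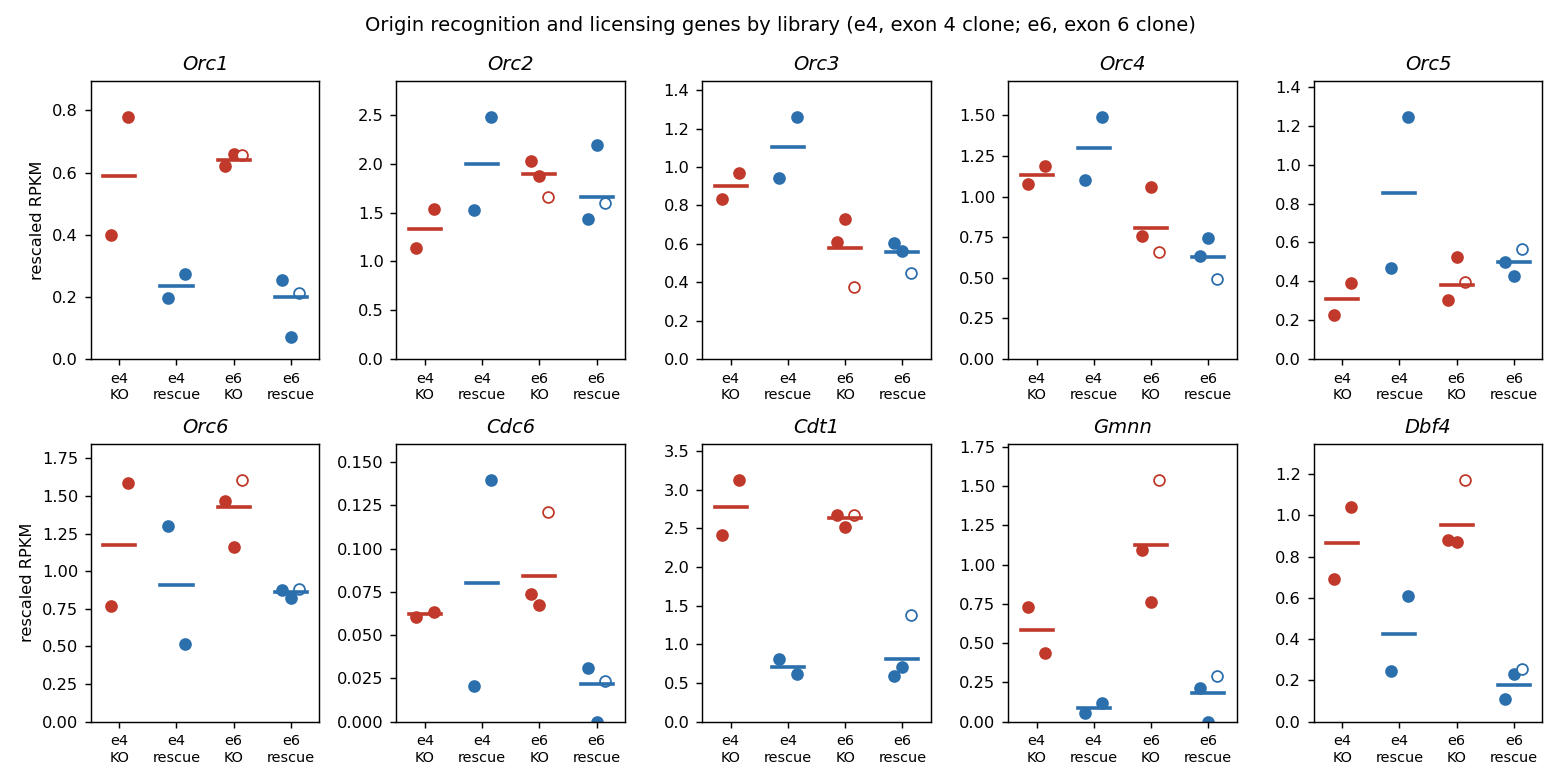
Rescaled RPKM of each gene in the 10 libraries, with KO in red and rescue in blue. Points are libraries, open points are the technical replicates of the exon 6 clone, and bars are means of biological replicates. Each panel has its own axis from 0. *Orc1*, *Cdt1*, *Gmnn* and *Dbf4* are higher in all KO libraries than in all rescue libraries, whereas single libraries of *Orc2*, *Orc3*, *Orc4*, *Orc5*, *Orc6* and *Cdc6* overlap.

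*Cdt1* (ENSMUSG00000006585.2; chromosome 8, 122568015 to 122573554, plus strand, GRCm38) brings the MCM helicase to ORC. It measured 2.41 and 3.12 RPKM in exon 4 KO against 0.805 and 0.622 RPKM in exon 4 rescue. In the exon 6 clone it measured 2.67, 2.52 and 2.67 RPKM in KO libraries 1 to 3 and 0.588, 0.712 and 1.38 RPKM in rescue libraries 1 to 3. All KO libraries lay above all rescue libraries, and rescue library 3 of the exon 6 clone was the highest of its group. On log2(RPKM + 0.5) it differed by 0.63 from its technical partner, library 2, against a median of 0.23 over 7550 genes, and the KO pair differed by 0.07. The means were 2.70 ± 0.302 RPKM for KO against 0.765 ± 0.210 RPKM for rescue. On log2(RPKM + 0.5), a scale that understates changes of low genes, the difference was 1.35 (SE 0.14, 95% confidence interval 1.04 to 1.66), with an adjusted *p* of 0.00121 (limma, Benjamini-Hochberg adjustment over all genes tested), and it was higher in 4 of 4 pairs. Another protein-coding entry, *Gm20388*, covers the whole of *Cdt1* on the same strand and was listed at 0 in every library.

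*Gmnn* (ENSMUSG00000006715.8; chromosome 13, 24751845 to 24761923, minus strand) encodes geminin, which holds Cdt1 inactive. It measured 0.728 and 0.436 RPKM in exon 4 KO and 0.0563 and 0.118 RPKM in exon 4 rescue. In exon 6 KO it measured 1.09, 0.761 and 1.54 RPKM, and in exon 6 rescue 0.217 and 0.294 RPKM in libraries 1 and 3, with library 2 listed at 0. The groups did not overlap, but the technical replicates were far apart. Their absolute difference on log2(RPKM + 0.5) was 0.69 in KO and 0.67 in rescue, whereas the median over 7550 genes was 0.18 and 0.23. The means were 0.852 ± 0.335 RPKM and 0.135 ± 0.0669 RPKM. The log2 change was 1.06 (SE 0.13, 95% confidence interval 0.76 to 1.36), with a limma adjusted *p* of 0.00334, and 4 of 4 pairs were higher in KO. Of its 31-base words, 4.67% also occur in *Gm6510*, so some reads may have been shared with it.

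*Orc1* (ENSMUSG00000028587.15; chromosome 4, 108579423 to 108614833, plus strand) is the ORC subunit whose level follows the cell cycle. It measured 0.398 and 0.778 RPKM in exon 4 KO against 0.197 and 0.273 RPKM in exon 4 rescue. The exon 6 clone had 0.621, 0.660 and 0.658 RPKM in KO and 0.255, 0.0722 and 0.212 RPKM in rescue libraries. Every KO library was above every rescue library. The means were 0.614 ± 0.159 RPKM and 0.217 ± 0.0594 RPKM. The log2 change of 0.63 (SE 0.13, 95% confidence interval 0.32 to 0.93) had a limma adjusted *p* of 0.0674, which the block on replicate number brought to 0.0467. Over 19 alternatives it ranged from 0.00291, with RPKM as deposited, to 0.313, with no minimum level (limma). Leaving out exon 4 KO replicate 1 brought it to 0.0175, whereas leaving out any other single replicate gave 0.0913 to 0.26 (limma). The antisense entry *Gm12743* overlaps 22409 bases of the gene and averaged 0.122 RPKM. Its log2 change was -0.17 (limma adjusted *p* = 0.784), and whether the counting used strand is not given in the sources used here.

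*Dbf4* (ENSMUSG00000002297.12; chromosome 5, 8396973 to 8422716, minus strand) encodes the regulatory subunit of Cdc7 kinase. It measured 0.694 and 1.04 RPKM in exon 4 KO and 0.245 and 0.610 RPKM in exon 4 rescue. The exon 6 clone had 0.882, 0.871 and 1.17 RPKM in KO and 0.112, 0.229 and 0.255 RPKM in rescue libraries. The highest rescue value, of exon 4 replicate 2, was close to the lowest KO value, of exon 4 replicate 1. The means were 0.910 ± 0.160 RPKM and 0.302 ± 0.214 RPKM. The log2 change was 0.84 (SE 0.18, 95% confidence interval 0.44 to 1.24), with a limma adjusted *p* of 0.0636, and 0.0305 with the block. Over 19 alternatives the adjusted *p* (limma) ranged from 7.15e-05 to 0.319. Without exon 4 KO replicate 1 it was 0.0399 and without exon 4 rescue replicate 2 it was 0.0112 (limma). Either omission brought *Dbf4* past the threshold, and leaving out any other single replicate did not.

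*Orc2* (ENSMUSG00000026037.11; chromosome 1, 58462771 to 58505109, minus strand) was the most abundant of the 10 in rescue cells. It measured 1.14 and 1.54 RPKM in exon 4 KO, 1.53 and 2.48 RPKM in exon 4 rescue, 2.03, 1.88 and 1.66 RPKM in exon 6 KO and 1.43, 2.20 and 1.60 RPKM in exon 6 rescue. KO and rescue overlapped, and the log2 difference was -0.14 (95% confidence interval -0.54 to 0.27). *Nif3l1* on the opposite strand overlaps 19046 bases of it and shares 27.9% of its 31-base words. *Nif3l1* averaged 0.331 RPKM, with a log2 change of -0.23 (limma adjusted *p* = 0.575).

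*Orc3* (ENSMUSG00000040044.8; chromosome 4, 34570796 to 34614944, minus strand) and *Orc4* (ENSMUSG00000026761.9; chromosome 2, 48902824 to 48950277, minus strand) are core ORC subunits. *Orc3* averaged 0.741 ± 0.196 RPKM in KO against 0.829 ± 0.343 RPKM in rescue cells, and *Orc4* 0.972 ± 0.198 against 0.962 ± 0.417 RPKM. The log2 differences were -0.08 (95% confidence interval -0.32 to 0.16) and 0.04 (-0.22 to 0.30), and both genes overlapped between groups. *Orc4* was lower in KO in both exon 4 pairs and higher in both exon 6 pairs, but the difference between the clones, 0.34 (95% confidence interval -0.13 to 0.82), did not pass the test.

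*Orc5* (ENSMUSG00000029012.8; chromosome 5, 22486485 to 22550429, minus strand) was on the low side in KO cells. It measured 0.227 and 0.394 RPKM in exon 4 KO and 0.467 and 1.24 RPKM in exon 4 rescue. The exon 6 clone had 0.302, 0.522 and 0.397 RPKM in KO and 0.497, 0.426 and 0.566 RPKM in rescue libraries. After averaging of technical replicates, all KO values were below all rescue values, but single libraries of the exon 6 clone overlapped. The log2 difference of -0.44 (SE 0.20, 95% confidence interval -0.89 to 0.02) did not pass the test (limma adjusted *p* = 0.595). Without exon 4 rescue replicate 2, its highest value, the difference was -0.22 (adjusted *p* = 0.646, limma), and over 19 alternatives the adjusted *p* ranged from 0.305 to 0.918. The pseudogene *Gm15421* lies within *Orc5* on the same strand, averaged 2.90 RPKM and had a log2 change of -0.40 (limma adjusted *p* = 0.733).

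*Orc6* (ENSMUSG00000031697.8; chromosome 8, 85299632 to 85308278, plus strand) is the subunit least tightly bound to ORC. It measured 0.766 and 1.58 RPKM in exon 4 KO, 1.30 and 0.514 RPKM in exon 4 rescue, 1.46, 1.16 and 1.61 RPKM in exon 6 KO and 0.873, 0.822 and 0.883 RPKM in exon 6 rescue. The exon 6 libraries did not overlap, but those of exon 4 did. The log2 difference over both clones was 0.38 (95% confidence interval -0.09 to 0.85; limma adjusted *p* = 0.669), and 3 of 4 pairs were higher. Its first bases overlap *Vps35* on the opposite strand over 171 bases, and *Vps35* averaged 7.10 RPKM with a log2 change of 0.27 (limma adjusted *p* = 0.453).

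*Cdc6* (ENSMUSG00000017499.12; chromosome 11, 98907801 to 98923940, plus strand), the loading factor that joins ORC before Cdt1, was barely measured. It was 0.0606 and 0.0634 RPKM in exon 4 KO, 0.0209 and 0.140 RPKM in exon 4 rescue and 0.0739, 0.0672 and 0.121 RPKM in exon 6 KO. In exon 6 rescue it was 0.0312 and 0.0237 RPKM in libraries 1 and 3 and 2.24e-05 RPKM in library 2. The groups overlapped, at 0.0730 ± 0.0152 RPKM for KO against 0.0509 ± 0.0597 RPKM for rescue. Its mean of 0.0620 RPKM lay below the minimum of 0.1 RPKM, so it was left out of the main test. Fitted without a minimum, it had a log2 difference of 0.06 (SE 0.08, 95% confidence interval -0.14 to 0.26) and a limma adjusted *p* of 0.813, on a scale where values so far under the pseudocount can hardly move.

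Over the 4 KO and 4 rescue replicates, 4 of the 10 members were higher without overlap (*Cdt1*, *Gmnn*, *Orc1* and *Dbf4*) and 1 was lower without overlap (*Orc5*). Among all 16866 genes tested, 3.11% were higher and 1.4% were lower without overlap.

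**Figure D3:**
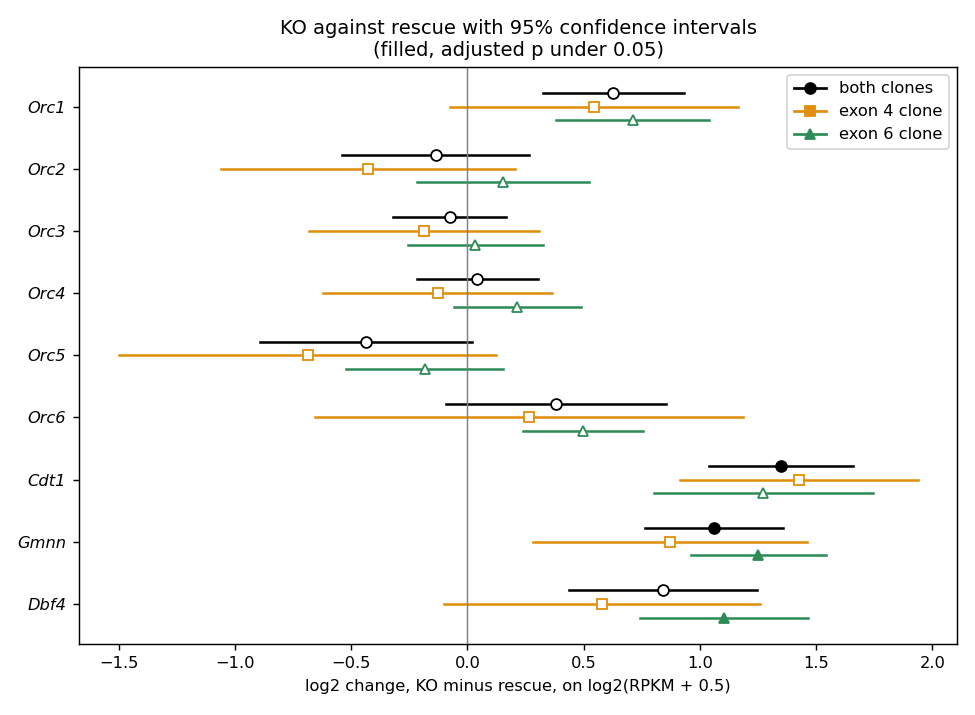
Log2 difference of KO minus rescue on log2(RPKM + 0.5) for the 9 members tested, over both clones (circles), in the exon 4 clone (squares) and in the exon 6 clone (triangles). Lines are 95% confidence intervals and filled symbols have an adjusted p under 0.05. *Cdt1* at 1.35 and *Gmnn* at 1.06 are called over both clones, and *Gmnn* and *Dbf4* in the exon 6 clone.

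In the exon 6 clone alone, 2 of 9 members passed the test, against 1.24% of 15301 tested genes that were higher and 0.0654% that were lower. *Gmnn* rose by 1.25 on the log2 scale (SE 0.11, limma adjusted *p* = 0.0164) and *Dbf4* by 1.11 (SE 0.14, limma adjusted *p* = 0.0392). *Cdt1* had a log2 change of 1.27 (SE 0.19) and an adjusted *p* of 0.0594 by limma, and *Orc1* one of 0.71 (SE 0.13) and 0.107. *Orc6* reached 0.50 (SE 0.10), with a limma adjusted *p* of 0.142. With the block the same 2 members were called, against 0.928% of genes higher and 0.0654% lower. A fit with 1 replicate left out keeps a lone replicate in that arm, so calls from such fits are not given. Whether the 2 calls depend on single replicates is therefore not shown.

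In the exon 4 clone alone, limma called 0 of 9 members and 0% of 18751 genes in either direction. At an unadjusted *p* under 0.05, 2 members, *Cdt1* and *Gmnn*, and 2.27% of all genes were higher, and 1.82% of all genes were lower. *Gmnn* averaged 0.0869 RPKM in the rescue cells of this clone and entered this test only through KO. With the block, 4 members were higher at that level, *Orc1* and *Dbf4* in addition, and 2 were lower, *Orc2* and *Orc5*, against 3.67% of all genes higher and 5.57% lower, and none of the 9 was called after adjustment. *Cdt1* had a log2 change of 1.43 (SE 0.21) and *Gmnn* of 0.87 (SE 0.24) in this clone. *Orc1* and *Dbf4* had 0.55 (SE 0.25) and 0.58 (SE 0.27). The interaction of clone and genotype called 0 members and 0% of genes by limma (unadjusted *p* under 0.05 in 0 of 9 members, and in 2.57% and 1.49% of all genes for a larger change in the exon 6 or the exon 4 clone), so no member was shown to respond differently in the clones. The intervals of that difference were wide, from -0.23 to 1.29 for *Dbf4* and from -0.82 to 0.51 for *Cdt1*. With the block, 2 of 9 members, *Dbf4* (0.07 to 0.99) and *Orc2* (0.02 to 1.14), had intervals above 0 and an unadjusted *p* under 0.05, as had 4.58% of all genes in that direction. Their limma adjusted *p* was 0.665 and 0.671.

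The summed level of ORC transcripts overlapped between KO and rescue cells. With technical replicates averaged, the shares of *Orc1* and *Orc5* in it did not. Summed over *Orc1* to *Orc6*, KO cells had 5.59 ± 0.837 RPKM and rescue cells 5.40 ± 1.35 RPKM. *Orc1* made up 8.96% to 12.1% of that sum in KO and 3.15% to 5.93% in rescue replicates. *Orc5* made up 5.11% to 8.09% in KO and 8.43% to 17.1% in rescue replicates. That gap is narrow, and single exon 6 libraries of *Orc5* overlapped in level. The 17.1% belongs to exon 4 rescue replicate 2, whose *Orc5* level stood apart from the rest. How often shares of other genes separate was not tested. The other 4 subunits overlapped, with *Orc2* at 28.9% ± 5.16 in KO and 34.3% ± 5.95 in rescue cells. As shares of 1 sum they are not independent of each other.

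**Figure D4:**
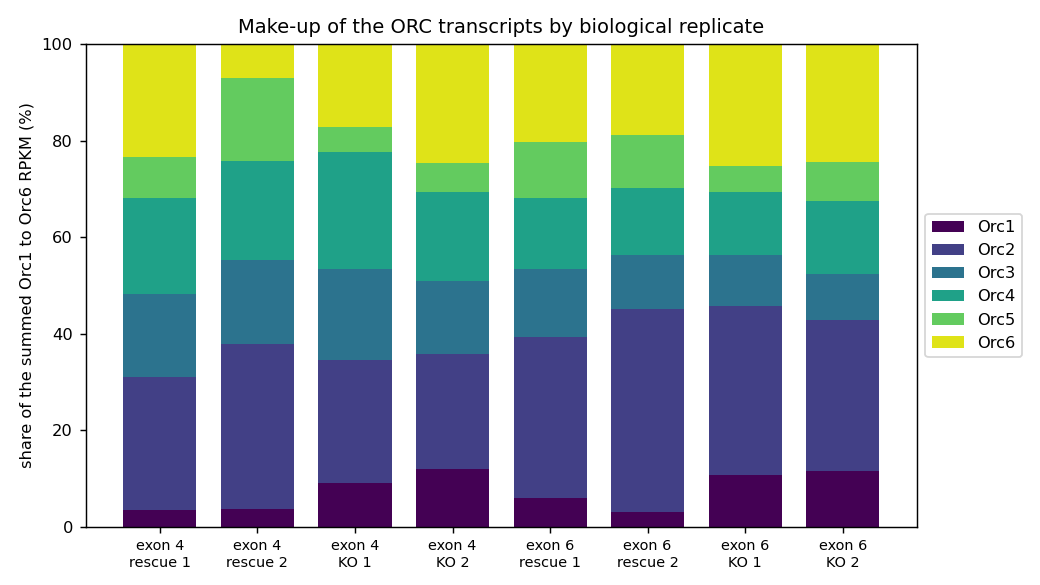
Share of the summed rescaled RPKM of *Orc1* to *Orc6* taken by each subunit, in percent, in each biological replicate, with technical replicates averaged. The *Orc1* band at the base is 3.15% to 5.93% of the bar in rescue and 8.96% to 12.1% in KO replicates.

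The level of *Orc1* against the other core subunits does not depend on the scaling of a library except through the pseudocount. That exception weighs here, because all rescue replicates of *Orc1* (0.142 to 0.273 RPKM) lay under the pseudocount of 0.5 RPKM. The size of the ratio therefore still depends on the pseudocount and the scaling. The log2 ratio of *Orc1* to the mean of *Orc2* to *Orc5* was -0.49 and -0.19 in the KO replicates of the exon 4 clone, and -0.21 and -0.20 in those of the exon 6 clone. Rescue replicates had -1.07 and -1.42 in the exon 4 clone against -0.72 and -0.996 in the exon 6 clone. All KO ratios were above all rescue ratios. The mean was -0.27 ± 0.14 in KO and -1.05 ± 0.29 in rescue cells, a difference of 0.78. A two-sided exact permutation test over 4 against 4 replicates gave *p* = 0.0286, the smallest it allows, and 0.0571 after adjustment over 2 ratios. For both ratios this test exchanged replicates between the clones and took no account of clone. The ratio of *Cdt1* to *Gmnn* was 1.27 ± 0.47 in KO and 0.99 ± 0.31 in rescue cells, which overlapped (difference 0.29, exact permutation *p* = 0.343, adjusted 0.343). With a pseudocount of 0.1 RPKM this difference turned to -0.27 (exact permutation *p* = 0.571).

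In rescue cells, which re-express Lin37, *Orc2* stood first at 1.83 RPKM. It was followed by *Orc4* (0.962 RPKM), *Orc6* (0.885 RPKM), *Orc3* (0.829 RPKM), *Cdt1* (0.765 RPKM) and *Orc5* (0.676 RPKM). *Dbf4* (0.302 RPKM), *Orc1* (0.217 RPKM), *Gmnn* (0.135 RPKM) and *Cdc6* (0.0509 RPKM) were lowest. The rescue replicates of each gene overlapped those of its neighbour in this order. *Orc2* stood at the 71.3 percentile of all genes tested and *Gmnn* at 6.46.

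A list of 40 further genes of the pathway was examined by role, and 38 were tested. Of these, 16 were higher and 0 were lower in KO cells, against 1.61% and 0.083% of all genes, and 14 were higher with the block, against 1.64%. Among the 16, *Mcm10*, *Ticrr* and *Dtl* averaged 0.0680, 0.0972 and 0.0937 RPKM in rescue cells, under the minimum of 0.1 RPKM, and so entered the test only through their KO level. Of the 34 genes that did not, 13 were called higher. *Mcm10* and *Ticrr* fall outside the rule for named genes and were named after their values were seen. The median log2 change of all 38 tested genes, including the 4 that entered through KO alone, was 0.29, against -0.03 over all genes. In the exon 6 clone 10 of 37 were higher, against 1.24% of all genes, and 6 with the block, against 0.928%. Of those 10, *Mcm10*, *Ticrr* and *Cdk1* were under the minimum in the rescue cells of that clone. In the exon 4 clone limma called 0 of 38 and 0% of all genes. There 15 of the list had an unadjusted *p* under 0.05, as had 2.27% of all genes that were higher and 1.82% that were lower. *Mcm10* and *Fbxo5* averaged 0.0898 and 0.0897 RPKM in the rescue cells of this clone and entered only through KO. The 15 include *Mcm10* but not *Fbxo5*.

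Among the helicase and its loading partners, 5 of 9 genes were higher and 0 lower, against 1.61% and 0.083% of all genes. *Mcm5*, a subunit of the helicase ring, averaged 2.66 ± 1.01 RPKM in KO against 0.274 ± 0.158 RPKM in rescue cells, a log2 change of 1.99 (limma adjusted *p* = 0.000373). *Mcm3*, another subunit, changed by 1.17 (limma adjusted *p* = 0.00213). *Mcmbp*, which binds MCM subunits, was at 0.03 with an interval of -0.21 to 0.27.

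Among genes of origin firing, 8 of 12 were higher and 0 were lower, against 1.61% and 0.083% of all genes. With the block 7 were higher, against 1.64%. The 8 include *Mcm10* and *Ticrr*, and 6 of the 9 that did not enter through KO alone were higher. *Cdc45*, which joins the helicase when it is activated, averaged 3.10 ± 0.694 RPKM in KO against 0.469 ± 0.0203 RPKM in rescue cells, a log2 change of 1.87 (limma adjusted *p* = 0.000155). *Gins2*, a subunit of the GINS complex in the active helicase, rose by 1.45 (limma adjusted *p* = 0.000253). *Donson*, a replication fork gene, was at 0.05 (95% confidence interval -0.24 to 0.35). *Cdc7*, the kinase that Dbf4 activates, was at 0.19 (95% confidence interval -0.18 to 0.57). It falls outside the rule for named genes and was named after its value was seen, as the partner of *Dbf4*.

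Of 12 genes that degrade or stabilize licensing factors, 1 was higher and 0 lower, against 1.61% and 0.083% of all genes. With the block 0 were called, against 1.64% of all genes higher and 0.16% lower. The gene called was *Dtl*, which entered the test only through its KO level, and 0 of the other 11 were called. It encodes the substrate receptor through which the CRL4 ubiquitin ligase destroys Cdt1. *Dtl* averaged 0.432 ± 0.106 RPKM in KO against 0.0937 ± 0.0596 RPKM in rescue cells, with a log2 change of 0.65 (limma adjusted *p* = 0.0398, and 0.0512 with the block). Over the alternatives its adjusted *p* (limma) ranged from 0.000256 to 0.211, and it missed the threshold when any single replicate but exon 4 rescue replicate 2 was left out. *Fbxo5*, which encodes an inhibitor of the anaphase-promoting complex, was at 0.25 (limma adjusted *p* = 0.616) and *Fbxo31*, an F-box gene, at -0.01 (limma adjusted *p* = 0.995).

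Of 5 S-phase kinase genes, 2 were higher and 0 lower, against 1.61% and 0.083% of all genes. *Ccna2*, encoding cyclin A, averaged 1.51 ± 0.380 RPKM in KO against 0.164 ± 0.0891 RPKM in rescue cells, a log2 change of 1.58 (limma adjusted *p* = 0.00155). *Cdk1* changed by 1.47 (limma adjusted *p* = 0.000408), and *Cdk2* was at 0.02 with an interval of -0.42 to 0.47. The geminin relatives *Mcidas* and *Gmnc*, 2 genes, were below the minimum level. Fitted without one, they had log2 differences of -0.06 and -0.01 (limma adjusted *p* = 0.759 and 0.814).

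**Figure D5:**
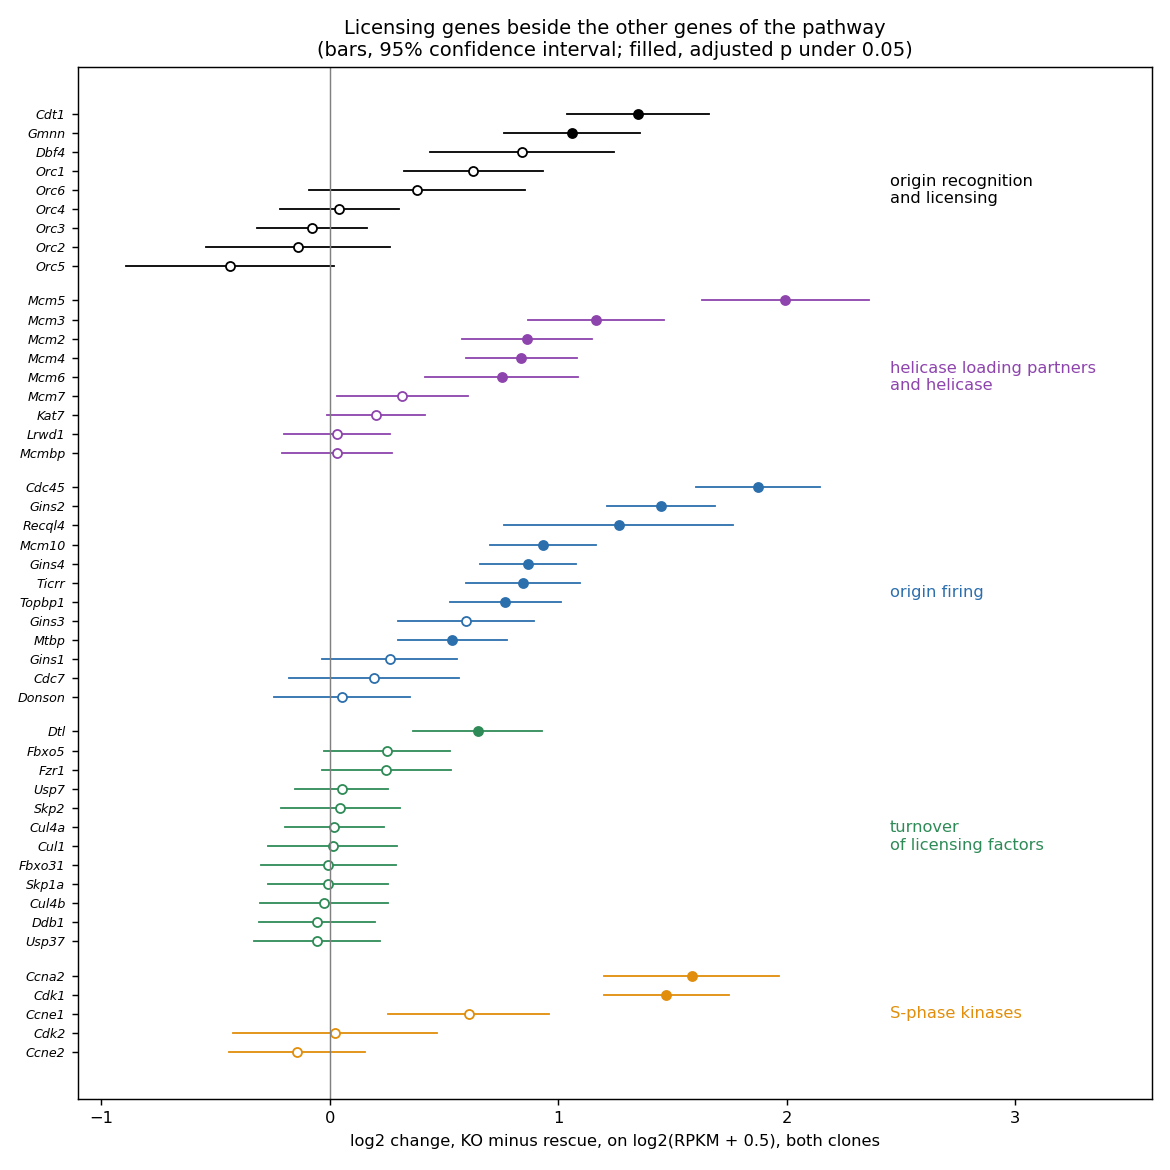
Log2 difference of KO minus rescue on log2(RPKM + 0.5) over both clones for the 9 members tested and the 38 further pathway genes tested, grouped by role. Lines are 95% confidence intervals and filled points have an adjusted p under 0.05. In the turnover group *Dtl* alone is filled, while 5 of 9 helicase and loading genes and 8 of 12 firing genes are. Of all genes tested, 1.61% were called higher.

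The directions of the small differences depend on scaling. Without rescaling, all genes together had a median log2 change of 0.64. On that scale *Orc2* was at 0.70, *Orc3* at 0.55 and *Orc5* at 0.07, positive where the rescaled values were negative. Relative to the median of all genes, *Orc5* and *Orc3* were then lower and *Orc2* was slightly higher. *Cdt1*, *Gmnn*, *Orc1* and *Dbf4* were at 2.02, 1.58, 1.07 and 1.46 on the deposited scale, above that median.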

How the data were processed

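The authors clipped adapters with cutadapt, mapped reads of ribosomal-RNA-depleted libraries to mm10 with segemehl, counted them per GENCODE gene with rnacounter and deposited RPKM values for 10 libraries. How the library total was defined is not given in the sources used here. The authors tested counts with edgeR. The RPKM allow no count test, so limma was used in its place. GENCODE M21 gave names and positions for 44585 of 45232 entries.

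A median-of-ratios factor was computed for each library from the 8523 genes that averaged 1 RPKM or more and were never 0. Technical replicates were averaged after division by it. Genes averaging 0.1 RPKM or more were fitted on log2(RPKM + 0.5) with limma 3.58.1 in R 4.3.3 (eBayes with a trend, clone as covariate), with Benjamini-Hochberg adjustment over all genes tested and a threshold of 0.05. Other steps were run in Python 3.11.15, with scipy 1.17.1, numpy 2.4.6 and pandas 2.3.3. The procedure was tested on simulated data with 1 spread for all genes. These held no effects of clone, library or replicate number, so the test cannot bear on such effects in the real data. Only genes averaging at least 1 RPKM were changed in the simulated data. The recovery of changes in lower genes, *Gmnn*, *Orc1* and *Dbf4* among them, was therefore not tested.

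KO and rescue share replicate numbers in the labels, which do not say that same-numbered cultures were grown together. Over 7550 genes, replicates with 1 number deviated together (correlation 0.477 in the exon 4 and 0.360 in the exon 6 clone). With 2 replicates per arm, the opposite pairing gives the same value with its sign reversed. The positive sign therefore cannot show that the numbers mark shared cultures, and the block was fitted as an alternative only. The labels call the replicates biological without saying how separate the cultures were, so *p*-values may measure technical spread in part.

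The members and gene lists were chosen with earlier results of these data known. All members were named, and from each role of the pathway list the 2 genes with the largest and the 1 with the smallest absolute log2 change over both clones. Each choice was varied in turn: the pseudocount (0.1 or 1), the minimum (none or 1 RPKM), the scaling (as deposited or quantile), technical replicates kept separate, the clone covariate and the trend (each dropped), the block and the omission of each replicate. Leaving out library 2 or library 3 of the exon 6 clone was added after seeing the data.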

Additional observations from a re-analysis of the deposited data

Results flagged for a closer look

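Among the 20 groups of 4 replicates tested for a value apart from the rest, of which chance marks about 1 in 20, 2 held one, and both were exon 4 rescue replicate 2. *Orc5* measured 1.244 RPKM there, and its gap to the next rescue replicate was 0.961 of the group's range. *Cdc6* measured 0.1397 RPKM there, with a gap of 0.849 of the range. The same replicate had the lowest number of entries listed at 0 of all libraries (7920). *Cdc6* lay under the minimum level and was tested only without one.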

How the results depend on the processing

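Over both clones, 2 members were called, *Cdt1* and *Gmnn*, and both were called in each alternative in which they were tested. The count was 1 with a minimum of 1 RPKM (3 members tested, 1.23% of all genes higher), 5 with RPKM as deposited (5.35%), 4 with quantile normalization (1.77%), 4 with technical replicates separate (2.18%) and 4 with the replicate block (1.64%), against 1.61% in the fit reported above. Leaving out 1 replicate gave 2 to 4, the highest without exon 4 KO replicate 1 (1.43%). The pathway list fell from 16 called (1.61% of all genes higher) to 7 with the minimum of 1 RPKM (19 genes tested, 1.23% of all genes higher). In the exon 6 clone 2 were called, against 1.24% of all genes. The count there was 1 with a pseudocount of 0.1 (1.19%), 0 with no minimum level (0%) and 0 with the minimum of 1 RPKM (0.894%). It was 8 with deposited RPKM (61.4%) and 4 with technical replicates separate (1.73%). It was 1 without library 3 (*Cdt1*, 0.438% of all genes) and 1 without library 2 (*Gmnn*, 0.877%). Counts without a whole replicate are not given for this clone, because they rest on a lone replicate in 1 arm. The ratio of *Orc1* to the other core subunits kept its difference of 0.78 with pairs, with an exact sign permutation *p* of 0.125, the smallest that 4 pairs allow; leaving out a replicate gave 0.66 to 0.89, with an exact *p* of 0.0571, again the smallest. The *Cdt1* to *Gmnn* ratio turned to -0.27 with a pseudocount of 0.1.

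Directions turned for uncalled genes only. Deposited RPKM gave 0.70 for *Orc2*, 0.55 for *Orc3*, 0.070 for *Orc5* and 0.60 for *Fbxo31* over both clones, 0.26 for *Orc5* in the exon 6 clone, and 0.36, 0.49 and 0.59 for *Orc2*, *Orc3* and *Orc4* in the exon 4 clone. *Fbxo31* was at 0.0028 with a pseudocount of 0.1, 0.030 with quantile normalization, 0.0026 with technical replicates separate and 0.00076 without library 3. Quantile normalization gave -0.024 for *Orc3* in the exon 6 clone. Without library 2, *Orc3* was at -0.056 in the exon 6 clone, *Mcmbp* at -0.0090 and *Cdk2* at -0.024. With 1 replicate left out, the ranges over both clones were -0.26 to 0.033 for *Orc2*, -0.13 to 0.0023 for *Orc3*, -0.013 to 0.14 for *Orc4*, -0.028 to 0.095 for *Mcmbp*, -0.014 to 0.17 for *Donson*, -0.12 to 0.11 for *Fbxo31* and -0.089 to 0.23 for *Cdk2*. They were -0.00098 to 0.31 for *Orc2* and -0.034 to 0.10 for *Orc3* in the exon 6 clone, and -0.28 to 0.027 for *Orc4* and -0.15 to 0.68 for *Orc6* in the exon 4 clone. The causes were not tested. Without read counts, the depth limit on the lowest genes, *Cdc6* and *Gmnn*, is unknown.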
